A study of Caenorhabditis elegans with 16 samples.

Results

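In adult C. elegans males, 158 piRNAs had at least 10 sense reads over 3 wild type small RNA libraries and at most 2 over 3 libraries of prg-1 null males. These 158 are the abundant piRNAs lost without PRG-1, out of 15913 piRNA names in the counted table. Of the 178 names that reached 10 wild type reads, they were 88.8%, and the other 20 kept more than 2 reads in the null. A further condition, that antisense reads must not exceed sense reads over the 6 libraries, removed no name. The members were therefore chosen by their null and wild type sense counts, so the loss itself is described here without a test.

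The series asked how piRNA levels differ between prg-1 mutant and wild type males. The libraries used come from males labelled prg-1 null mutant (replicates 1 to 3) and Wild Type (replicates 1 to 3). Each library is small RNA of a pool of 20 to 30 whole males. All were grown at 25 °C, taken at the middle of the fourth larval stage and collected 24 hours later, and the labels give the prg-1 genotype as the only difference. The allele behind the null and the strain background are not given in the labels. A further 10 libraries of the series (prg-1 null and wild type replicates 4 and 5, prg-1 RNase mutant and prg-1 DPAZ mutant) were not used, because their columns do not share the row order of these 6. The labels do not say whether replicates came from separate cultures.

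piRNAs are small RNAs of the germline that guide Piwi-clade Argonaute proteins. In C. elegans they are called 21U-RNAs, after their length and their first base, and most are encoded one by one, each with its own small promoter, in clusters on chromosome IV. PRG-1 is the Piwi protein that carries them, and without it mature 21U-RNAs do not accumulate. In the germline, the PRG-1 and piRNA complex recognises transcripts by imperfect pairing and starts the production of secondary small RNAs against them. The names of the members come from piRNAdb and are not paired with loci, sequences or targets in the tables used here, so each member is described by its reads.

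Summed over 3 libraries, the null had 1.25 times the genome-mapped reads of wild type (5198950 against 4153578), but single libraries overlapped in depth. Genome-mapped reads numbered 1185732, 1724251 and 2288967 in null replicates 1 to 3, against 1263769, 1860189 and 1029620 in wild type replicates 1 to 3. Levels are given as RPM, reads per 1000000 genome-mapped reads. One read was worth 0.437 to 0.843 RPM in a null library and 0.538 to 0.971 RPM in a wild type library. The rule's limits of 2 null and 10 wild type reads correspond to 0.385 and 2.41 RPM over the 3 libraries of each genotype. The intervals and upper limits below describe counting error alone, with reads taken as independent. They leave out the spread between libraries, and amplified reads are not independent counts of molecules.

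The layout of the table touches every single name. A block of 15203 rows lists the names in alphabetical order, with 313 rows before it and 397 rows after it in another order. Of the members, 24 lie in the alphabetical block, 88 before it and 46 after it. In the alphabetical block, a null and a wild type library had reads on the same row 16.4 times as often as by chance, and in the rows before and after it 1.31 and 1.35 times. Null libraries shared rows with each other 43.8, 2.16 and 12.5 times as often as by chance in the alphabetical block, before it and after it, and wild type libraries 16.1, 1.07 and 1.03 times. These ratios cannot be compared between sections, because many rows outside the block have wild type reads. If every row of the smaller library were shared, the ratio between null and wild type would be 59.9 in the block, 1.63 before it and 2.11 after it, and between wild type libraries 45.7, 1.37 and 1.10. Whether each name belongs to its row could not be tested. The members inside and outside the block are set apart below for some of the values.

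As a set, the lost piRNAs made up most of the sense piRNA reads of wild type males and almost none of the null. In null replicates 1 to 3 the members had 3, 13 and 13 sense reads, against 1465, 3683 and 1033 in wild type replicates 1 to 3. This is 2.53, 7.54 and 5.68 RPM in the null libraries and 1159, 1980 and 1003 RPM in the wild type libraries. The means were 5.25 ± 2.53 RPM in the null and 1381 ± 525 RPM in wild type (SD, n = 3 each). Pooled over libraries the level in the null was 267 times lower (95% interval 186 to 399), a value that the choice of members sets.

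Members took 0.870, 2.80 and 2.15% of the sense piRNA reads in null replicates 1 to 3 (Wilson 95% intervals 0.296 to 2.53%, 1.64 to 4.72% and 1.26 to 3.64%). In wild type replicates 1 to 3 they took 53.6, 61.8 and 62.6% (Wilson 95% intervals 51.8 to 55.5%, 60.6 to 63.0% and 60.3 to 64.9%). The share in wild type replicate 1 was lower, and its interval did not overlap those of wild type replicates 2 and 3. The highest wild type share was 1.17 times the lowest, while the level in wild type replicate 2 was 1.97 times that in wild type replicate 3. The 24 members of the alphabetical block held 7.52 ± 1.74% of wild type sense reads (SD, n = 3), and the 134 members outside it held 51.8 ± 4.17%.

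**Figure D1:**
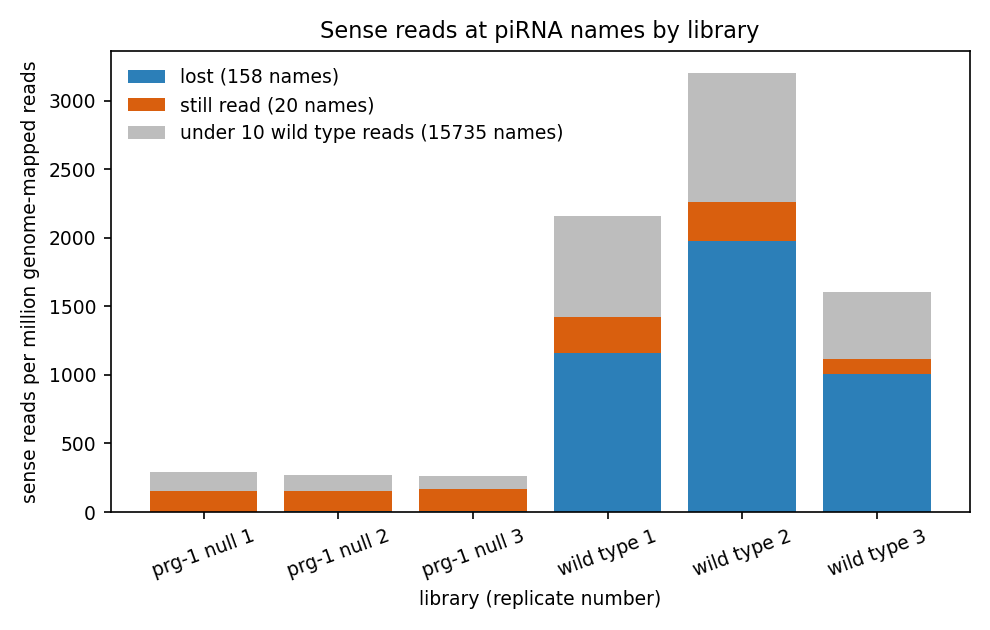
Sense reads at piRNA names in each library, in RPM (vertical axis), stacked for the 158 lost names, the 20 names still read in the null and all names under 10 wild type reads. The lost names reach 1003 to 1980 RPM in the wild type bars and 2.53 to 7.54 RPM in the null bars, too little to be seen there.

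The 20 names that kept reads and the names under the threshold were sorted from the members by the same counts, so their sums are a description. Names still read were at 153 ± 8.08 RPM in the null and 218 ± 91.5 RPM in wild type (SD, n = 3 each). They took 51.3 to 61.4% of null sense reads and 7.03 to 12.0% of wild type sense reads. The 15735 names with fewer than 10 wild type reads summed to 117 ± 21.4 RPM in the null and 724 ± 229 RPM in wild type. Pooled over libraries, the null was 6.86 times lower at those names (95% interval 6.27 to 7.50). At the names still read the null was at 0.665 of wild type, which is lower by 1.37 to 1.65 times (95% interval, counting error). The libraries did not all go that way: these names had 149, 148 and 163 RPM in null replicates 1 to 3, against 260, 280 and 113 RPM in wild type replicates 1 to 3, so wild type replicate 3 lay below every null library. The 8 of them with enough reads for a fit with edgeR, a model of counts, had a median log2 fold change, null over wild type, of 0.34. These fold changes ran from -1.01 to 0.722 and 0 of them were called, so no direction is read from the median.

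A single piRNA, cel-piR-6101, led the set in every wild type library. It had 0, 0 and 2 reads in null replicates 1 to 3, against 220, 415 and 112 reads in wild type replicates 1 to 3. At 169 ± 57.4 RPM (SD, n = 3) it made up 15.0, 11.3 and 10.8% of the members' reads in wild type replicates 1 to 3. Its level in the null was 468 times lower (95% interval 129 to 3867), and the genotypes did not overlap.

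The next 2 members also kept a read in 1 null library. cel-piR-733 had 0, 1 and 0 null reads, against 60, 244 and 78 wild type reads (84.8 ± 42.6 RPM). Its level in the null was 478 times lower (95% interval 85.3 to 18934). The level in wild type replicate 2, at 131 RPM, stood above the 47.5 and 75.8 RPM of wild type replicates 1 and 3. cel-piR-4338 had 0, 0 and 1 null reads, against 80, 144 and 43 wild type reads (60.8 ± 18.0 RPM), and was 334 times lower in the null (95% interval 59.5 to 13249).

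Of the 11 members with 100 or more wild type reads, 4 had no null read at all. cel-piR-871 had 0 reads in each null library, against 76, 129 and 32 wild type reads (53.5 ± 20.0 RPM). It is the most abundant member in the alphabetical block of the table. cel-piR-8248 had 0 null reads, against 47, 143 and 42 wild type reads (51.6 ± 21.9 RPM). cel-piR-15599 had 0 null reads, against 33, 114 and 31 wild type reads (39.2 ± 19.3 RPM). These 3 were at least 98.9, 96.8 and 74.3-fold lower in the null, taking 3 reads over the 3 null libraries (0.577 RPM) as the most that a count of 0 allows. cel-piR-1350 followed, with 0 null reads, against 23, 79 and 16 wild type reads, and was at least 49.2-fold lower.

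The others of this class left 1 or 2 null reads each. cel-piR-6735 had 0, 0 and 2 null reads, against 11, 112 and 33 wild type reads. Its wild type libraries were far apart, at 8.70, 60.2 and 32.1 RPM. cel-piR-3162 had 0, 0 and 1 null reads, against 23, 62 and 44 wild type reads, and was one of the 31 members with their highest RPM in wild type replicate 3. cel-piR-3464 had 0, 0 and 1 null reads, against 23, 81 and 10 wild type reads. cel-piR-10036 had 0, 1 and 0 null reads, against 10, 80 and 13 wild type reads. In these last 2, wild type replicate 2 stood apart at 43.5 and 43.0 RPM, while the other wild type libraries lay between 7.91 and 18.2 RPM.

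A further 14 names completed the 25 with most wild type reads after these 11. cel-piR-11944 had 0 null reads, against 7, 59 and 21 wild type reads. cel-piR-9316 had 0, 2 and 0 null reads, against 9, 57 and 17 wild type reads. cel-piR-2245 (80 wild type reads), cel-piR-3804 (74), cel-piR-1202 (68), cel-piR-13506 (68), cel-piR-10817 (66), cel-piR-5432 (63), cel-piR-7022 (61), cel-piR-2586 (57) and cel-piR-6646 (57) had no null read. They and cel-piR-11944 were at least 23.8 to 36.3-fold lower in the null. cel-piR-13253 and cel-piR-15484 kept 1 null read beside 77 and 59 wild type reads, and cel-piR-6649 kept 2 null reads beside 58 wild type reads. Of the 25, cel-piR-6646 alone had a wild type library without reads.

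**Figure D2:**
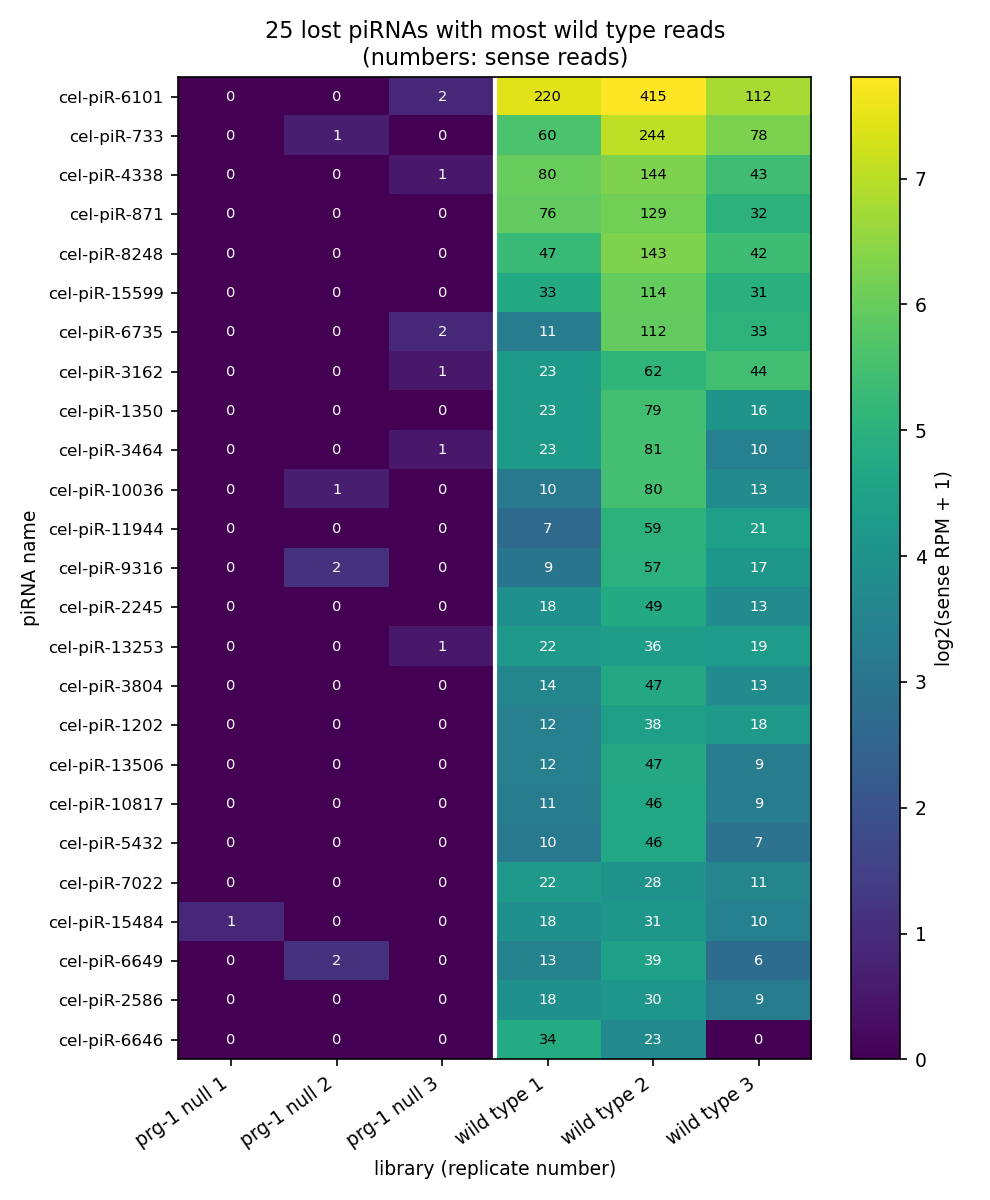
The 25 lost piRNAs with most wild type reads (rows) in the 3 null and 3 wild type libraries (columns); colour gives log2(sense RPM + 1) and each cell prints the sense reads. Null cells hold 0, 1 or 2 reads, and cel-piR-6646 is the row with an empty cell in wild type replicate 3.

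Reads were concentrated in few members and thin in most. The first member held 12.1% of the wild type reads of the set, the first 5 held 30.2%, the first 10 held 41.4% and the first 25 held 58.6%. The remaining 133 members had wild type means of 1.79 to 12.4 RPM. By class, 88 members had 10 to 19 wild type reads, 43 had 20 to 49, 16 had 50 to 99 and 11 had 100 or more. In the class of 10 to 19 reads the 83 members without a null read were at least 4.17 to 7.93-fold lower in the null, so the depth of these libraries sets the size that can be stated. In the class of 20 to 49 reads the 36 members without a null read were at least 8.34 to 20.4-fold lower. Over all members the median was 7.93 times lower, with members at 0 null reads placed at their bound, against 7.51 over all 178 names with at least 10 wild type reads.

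In the null, 135 members had 0 reads, 17 had 1 read and 6 had 2 reads. The 29 null reads of the set fell on 23 members. No member had reads in more than 1 null library, which only the 6 members with 2 null reads could have had. Null replicate 1 held reads of 3 members, null replicate 2 of 10 and null replicate 3 of 10. The members with 2 null reads were cel-piR-6101, cel-piR-6735, cel-piR-9316, cel-piR-6649, cel-piR-10509 and cel-piR-9338. In each of them both reads came from the same library. cel-piR-10509 had 0, 2 and 0 null reads, against 11, 26 and 4 wild type reads. cel-piR-9338 had 0, 0 and 2 null reads, against 0, 7 and 8 wild type reads, and in this member the genotypes overlapped. Members with most wild type reads had a null read more often: 4 of 11 members with 100 or more wild type reads were without one, against 83 of 88 members with 10 to 19. Of the members with a null read, cel-piR-1457 lies in the alphabetical block, cel-piR-8166 after it and all others before it. The rows before the block also hold 4698 of the members' 6181 wild type reads. Abundance and place in the layout were not separated here.

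Names on both sides of the limits differed by single reads. At the wild type limit, 20 members had exactly 10 wild type reads, and 18 names with 9 wild type reads and at most 2 null reads stayed outside. Inside were cel-piR-721 (4, 6 and 0 wild type reads), cel-piR-2442 (3, 7 and 0), cel-piR-2482 (1, 9 and 0) and cel-piR-2497 (1, 9 and 0), all with 0 null reads. Outside were cel-piR-15595 (0, 2 and 0 null reads, and 9, 0 and 0 wild type reads) and cel-piR-6017 (0, 0 and 1 null reads, and 4, 5 and 0 wild type reads). cel-piR-530 and cel-piR-1494, with 9 wild type reads and no null read, were outside too. At the null limit 3 names had 3 null reads. These were cel-piR-10544 (0, 0 and 3 null reads, and 42, 72 and 8 wild type reads), cel-piR-9221 (1, 0 and 2, and 8, 37 and 5) and cel-piR-10302 (0, 3 and 0, and 1, 22 and 6). cel-piR-10544 was 50.9 times lower in the null (95% interval 17.0 to 250.2).

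Other names with many wild type reads kept reads in every null library. cel-piR-156 had 45.5, 40.6 and 55.0 RPM in null replicates 1 to 3, against 38.8, 36.0 and 28.2 RPM in wild type replicates 1 to 3. cel-piR-12706 had 24.5, 32.5 and 39.8 RPM in the null, against 18.2, 35.5 and 3.88 RPM in wild type. cel-piR-1592 had 21.1, 17.4 and 10.9 RPM in the null, against 63.3, 30.6 and 4.86 RPM in wild type. In cel-piR-12706 and cel-piR-1592 the wild type libraries were spread across the null values. cel-piR-14099 (0, 0 and 4 null reads, and 9, 55 and 27 wild type reads) was closer to the members, at 28.5 times lower in the null (95% interval 10.7 to 106.7). Of the 20 names still read, 12 lie in the alphabetical block of the table, against 24 of the 158 members.

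**Figure D3:**
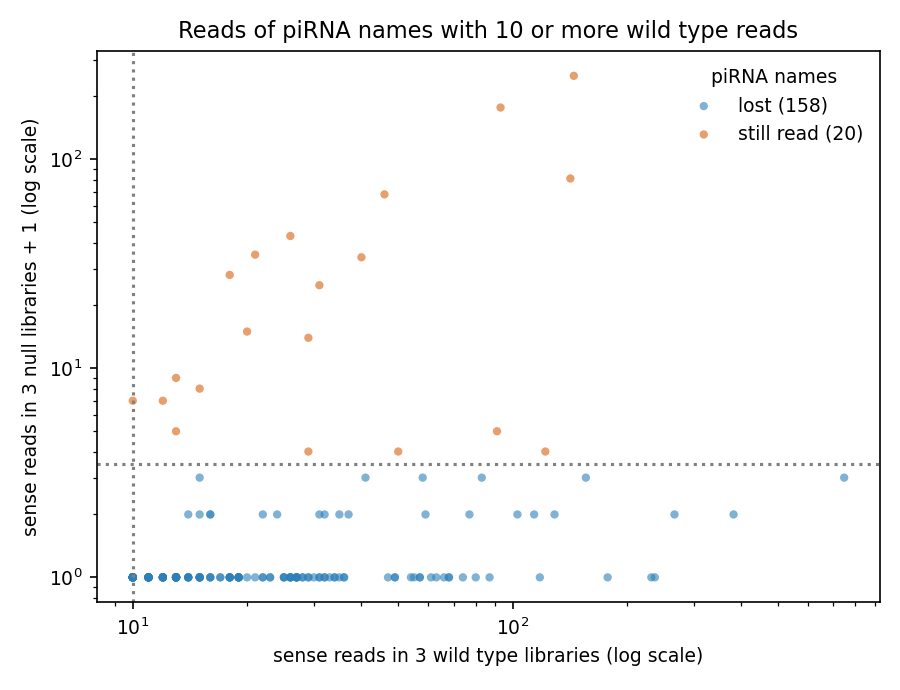
Sense reads over 3 wild type libraries (horizontal, log scale) and over 3 null libraries plus 1 (vertical, log scale) for the 178 piRNAs with at least 10 wild type reads; dotted lines mark the limits of the rule. The lost names lie in 3 rows at 0, 1 and 2 null reads, cel-piR-6101 with 747 wild type reads being farthest to the right.

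The rule used the sum of the wild type libraries and not how reads fell among them. Reads were present in all 3 wild type libraries for 102 members, in 2 for 53 and in 1 for 3. These 3, cel-piR-2717, cel-piR-3270 and cel-piR-9156, had 10 reads each in wild type replicate 2 and are named after their values were seen. Wild type replicate 2 lacked reads of 1 member, wild type replicate 1 of 15 and wild type replicate 3 of 43. With every library brought to the lowest wild type depth the expected numbers with reads were 140 in wild type replicate 1, 155 in wild type replicate 2 and 115 in wild type replicate 3. Of the 43 members without reads in wild type replicate 3, 38 lie in the rows after the alphabetical block, where they are 38 of 46 members.

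All wild type libraries lay above all null libraries for 102 members (64.6%), against 59.6% of the 178 names with at least 10 wild type reads. Since these names were chosen on the same counts, nothing is read from this share. Of the members with 100 or more wild type reads, 11 of 11 had reads in all 3 wild type libraries, and of those with 10 to 19 reads 38 of 88.

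Members ranged from even to very uneven among wild type libraries. The coefficient of variation of RPM had a median of 74.0% over all members and 57.7% over the 46 with at least 30 wild type reads. Among these 46, cel-piR-13253 was the most even, at 17.4, 19.4 and 18.5 RPM (18.4 ± 0.973 RPM). cel-piR-10692, at 8.70, 8.06 and 9.71 RPM, and cel-piR-8981, at 10.3, 6.45 and 9.71 RPM, were next by the index of dispersion, the variance of counts over that of sampling at these depths (0.0770, 0.104 and 0.791 for the 3). Against the members' own total in each library the order was another: these 3 had indices of 2.91, 2.65 and 4.69, and cel-piR-2245 had the lowest of the 46, at 0.0481.

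The largest indices were those of cel-piR-733 (30.6), cel-piR-6735 (27.1) and cel-piR-6101 (24.2), which also have many reads. With more reads, the same proportional difference gives a larger index. Wild type replicate 2, in which the whole set was highest, held the highest RPM of 101 members. Against the members' own total in each library in place of depth, the median index of the 46 was 2.71, against 6.28 by depth. By the members' total cel-piR-6646 had the highest index, 22.1, with 26.9, 12.4 and 0 RPM. Its count of 0 in wild type replicate 3 allows up to 2.91 RPM.

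Across the 158 members, log2(RPM + 1) in wild type replicates 1 and 2 had Pearson's r of 0.617, in replicates 2 and 3 of 0.588 and in replicates 1 and 3 of 0.404. Spearman's rho was 0.515, 0.445 and 0.297 for the same pairs. These describe the same 158 names in 3 libraries of unequal depth, and names are not independent replicates. Among the 46 members with at least 30 wild type reads r was 0.737, 0.680 and 0.469 for the same pairs.

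**Figure D4:**
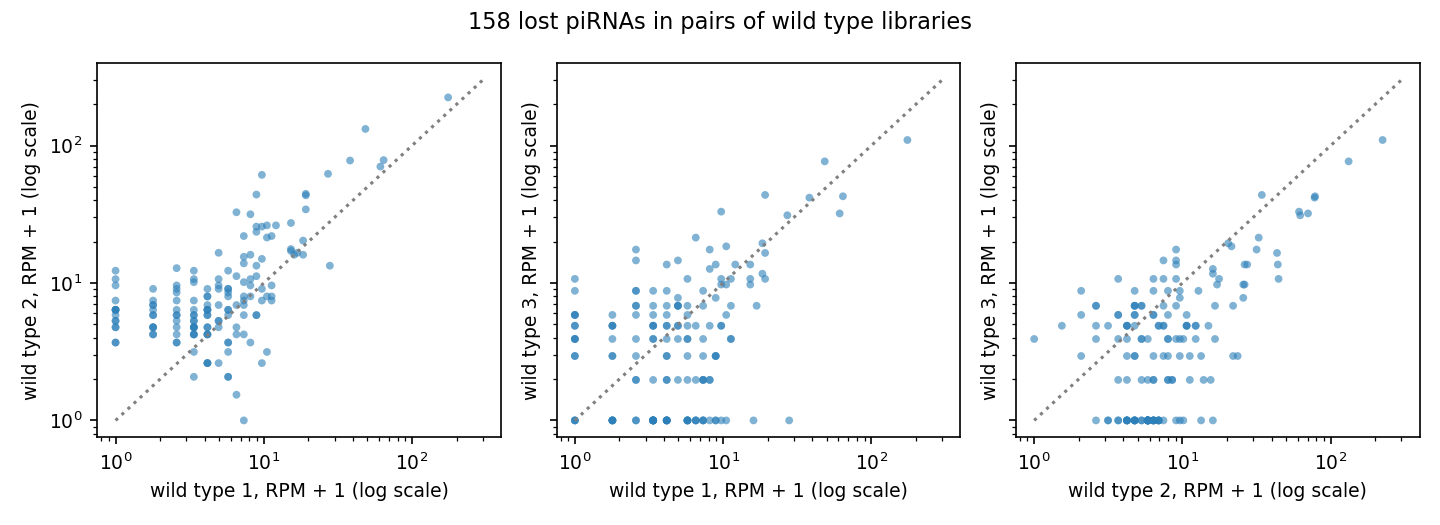
RPM + 1 of the 158 lost piRNAs in each pair of wild type libraries (log scales); the dotted line marks equal levels. Points lie above the line in the left panel and below it in the right panel more often than not, since 101 members had their highest RPM in wild type replicate 2, and the row at 1 holds the 43 members without reads in wild type replicate 3.

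To read the loss in libraries that did not enter the choice, the same limits were applied to 2 replicate numbers and the third was set aside. With replicate 1 set aside 116 names were chosen, 113 of them among the 158. They had 13 reads (11.0 RPM) in null replicate 1, against 1266 reads (1002 RPM) in wild type replicate 1, 91.4 times lower in the null (95% interval 53.2 to 172). With replicate 2 set aside 68 names were chosen, all among the 158. They had 11 reads (6.38 RPM) in null replicate 2, against 2778 reads (1493 RPM) in wild type replicate 2, 234 times lower (95% interval 131 to 469). With replicate 3 set aside 133 names were chosen, 129 of them among the 158. They had 33 reads (14.4 RPM) in null replicate 3, against 950 reads (923 RPM) in wild type replicate 3, 64.0 times lower (95% interval 45.3 to 93.5).

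Each of these is 1 library against 1, with no test. In the wild type library set aside, 101 of 116 chosen names had a read for replicate 1, 67 of 68 for replicate 2 and 90 of 133 for replicate 3. In the null library set aside, 5, 8 and 13 of them had a read. The sums therefore show no loss for the names without a read in that wild type library. The ratio is smaller than the 267 of the full choice in each case, but the names differ between choices. With replicate 2 set aside the interval, 131 to 469, includes 267. With replicate 1 or 3 set aside, a single name carried many of the reads in the null library set aside. cel-piR-216 had 13 of the 33 reads in null replicate 3, and cel-piR-3654 had 6 of the 13 in null replicate 1; both are named after their values were seen. Names with more than 2 reads in the null library set aside numbered 2 for replicate 1, 0 for replicate 2 and 3 for replicate 3.

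The authors deposited the count of 21U-only reads as 1 total per library and not by row of the table. Its definition was not given, and these reads are taken here to be a part of the sense piRNA reads. Such reads numbered 17, 27 and 39 in null replicates 1 to 3 (14.3, 15.7 and 17.0 RPM), 83 of 1416 sense reads together. They numbered 1711, 4105 and 1003 in wild type replicates 1 to 3 (1354, 2207 and 974 RPM). Sense reads that were not 21U only numbered 1021, 1854 and 646 in wild type replicates 1 to 3, fewer than the members' reads in each of these libraries. If 21U-only reads are such a part, at least 444, 1829 and 387 of the members' reads there (351, 983 and 376 RPM) are 21U only. This lower limit rests on the members' wild type reads, and so on the rows that the rule chose. In wild type replicate 3 the members' 1033 reads exceed the 1003 21U-only reads of the library, so on the same reading not all of them are 21U only.

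Antisense reads fell on 2 of the 158 members (1.27%), against 197 of all 15913 names. Their rarity is therefore not particular to the members. The members had 0 antisense reads in each null library, against 0, 8 and 0 in wild type replicates 1 to 3. All 8 came from cel-piR-1249 and cel-piR-5810, with 4 each. The mean was 0 RPM in the null and 1.43 ± 2.48 RPM in wild type (SD, n = 3), a difference of -1.43 RPM (exact two-sided permutation p = 1.0, where 3 against 3 libraries cannot go below 0.1). With all 8 reads in 1 library, every relabelling of the libraries gives the same absolute difference. The p-value was therefore fixed in advance, and nothing is read from it. The whole table had 536 antisense reads in the null and 437 in wild type, so members took 8 of 973. Of these 973, 904 fell on names without a sense read in the 6 libraries, and 948 fell in the alphabetical block, where 24 of the 158 members lie.

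Across the whole table, edgeR's quasi-likelihood test between null and wild type could be run on 27 names with at least 10 reads in at least 3 libraries. Of these, 19 are members and all 19 were lower in the null (Benjamini-Hochberg adjusted p under 0.05), against 70.4% of all names tested. The filter left out 139 members, and a member passed it only by being high in wild type, so these calls describe the choice and nothing is read from them. The remaining 8 tested names belong to those still read, and 0 of them were called (DESeq2 with the same scaling called 0 as well, and 0 had an unadjusted p under 0.05). With total piRNA reads as library size the same test called 19 names lower and 8 higher in the null, and DESeq2 with its own size factors called 19 lower and 6 higher. Per genome-mapped read, all sense piRNA reads together were 9.14 times lower in the null, so scaling to their total raises every name there. The size factors of DESeq2 were estimated from the 27 names, of which 19 are members. Nothing is therefore read from the higher calls.

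Genome bins of 100 kb give a view of the same libraries that the rule did not use. In whole animals, fewer germline cells and less piRNA per cell cannot be told apart. The bin of mir-35, a microRNA of germline and embryo (chromosome II 11500001 to 11600000, ce11), was at 502 ± 75.5 RPM in the null and 572 ± 94.6 RPM in wild type (SD, n = 3 each). Of the 7 bins with marker microRNAs (mir-35, mir-1, mir-124, lsy-6, lin-4, let-7 and mir-71), only that of mir-35 had a lower mean in the null, at 0.877 of wild type. In the others the null was at 1.10 to 1.39 of wild type. Single libraries of null and wild type overlapped in each of the 7 bins. That of mir-35 had 483, 585 and 437 RPM in null replicates 1 to 3, against 503, 680 and 533 RPM in wild type replicates 1 to 3. No bin was at 0 in either genotype. Whether the amount of germline plays a part in the loss of the members was not tested.

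The 37 bins of the larger piRNA cluster on chromosome IV, on its right arm, summed to 10889 ± 404 RPM in the null and 14081 ± 3530 RPM in wild type. The 25 bins of the smaller cluster of that chromosome summed to 76676 ± 7852 RPM in the null and 67731 ± 10714 RPM in wild type. Bins count reads of all kinds on both strands, and the members' 1381 RPM in wild type is small beside either sum. Which members lie in these clusters is not given by the names.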

How the data were processed

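Per the labels' protocols, small RNA of whole adult males was treated with a pyrophosphatase, which lets RNAs with a 5′ triphosphate be cloned as well, and made into libraries. The submitters' processing notes name cutadapt 3.7, an adapter trimmer, and FastQC 0.12.0, a checker of read quality. Which aligner was used, with how many mismatches, and how reads with several matches were counted was not given in the sources used here, so reads of similar piRNAs may be shared. The authors deposited raw read counts: sense and antisense counts per piRNAdb name, counts per 100 kb bin of ce11, and per library the total, genome-mapped, piRNA and 21U-only reads. The definition of a 21U-only read was not stated there either. Of 16 libraries, 6 were used; null and wild type replicates 4 and 5 were left out with the other mutants.

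RPM was computed as counts over genome-mapped reads. Column sums of the piRNA table equalled the deposited piRNA totals of the 6 libraries. The edgeR 4.0.16 quasi-likelihood test (R 4.3.3, library sizes set to the genome-mapped totals without normalization factors) was run on the whole table and tested on simulated data; DESeq2 1.42.0 was an alternative. Ratios of pooled counts carry exact binomial 95% intervals, shares Wilson 95% intervals (scipy 1.17.1), and a count of 0 is taken as at most 3 reads. Antisense reads were compared by an exact two-sided permutation test.

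The members and lists were chosen with earlier results of these data known. The text names the 25 members with most wild type reads, the 3 most and 3 least uneven with at least 30 reads, members with at least 3 antisense reads or 2 null reads, names next to each limit and the 5 names still read with most wild type reads; no name with 10 wild type reads was mainly antisense. The replicates of each genotype differed beyond sampling noise over the bins (chi-square per degree of freedom at least 41.2). Thresholds, libraries, filters and scaling were varied as described in the closing section. Markers were placed with the RefSeq table of WBcel235, the assembly of ce11.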

Additional observations from a re-analysis of the deposited data

How the results depend on the processing

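The size of the set depends on its limits, and on wild type replicate 2, the deepest wild type library. A limit of 5 wild type reads gave 349 names (71.6% of wild type sense reads), and a limit of 20 gave 70 names (48.1%). Requiring 0 null reads gave 135 names with 35.5% of wild type sense reads and 827 RPM, and up to 5 null reads gave 163 names. Without 1 library the number was 68 to 162, the share 47.6 to 62.0% and the level 882 to 1502 RPM; the lowest of each is the value without wild type replicate 2. Limits set on RPM gave 134 names, 130 of them among the 158. Against total reads the level was 730 RPM. The 24 names of the alphabetical block summed to 168 RPM and 7.52% of wild type sense reads, and the 134 outside it to 51.8%, a split chosen after seeing the data. With a filter of 10 reads over all 6 libraries edgeR called 144 names (142 lower, 2 higher, 198 tested), and with no filter beyond 1 read 89, all lower, of 1444. With total piRNA reads as library size it called 19 lower and 8 higher, and DESeq2 with its own size factors 19 lower and 6 higher. Both scalings use the members' own reads, which are fewer in the null, so nothing is read from the higher calls. Without 1 library the calls numbered 19 or 20; without wild type replicate 2 they were 19 lower and 1 higher, and without wild type replicate 3 20 lower. The direction of the tested members is fixed by their choice, so nothing is read from it. Null and wild type libraries of the same replicate number had correlations of deviations over bins of 0.14, -0.05 and -0.21. Those of unlike numbers ran from -0.33 to 0.37, so no pairing by number was seen. Whether libraries shared a batch was not tested. With replicate number as a block 19 names were called, and the antisense difference was -1.43 RPM (exact p = 1.0, again fixed by reads in 1 library). Without 1 library the antisense difference was -2.15 to 0 RPM, all from wild type replicate 2. At this depth, loss beyond about 4.17-fold cannot be stated for a member with 10 wild type reads.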
